A study of Mus musculus with 16 samples.

Results

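The genes described here encode the steps from glucose uptake to lactate export and from pyruvate through the tricarboxylic acid (TCA) cycle. They were chosen by gene symbol from 37 listed names, 17 for glycolysis and 20 for the TCA cycle, out of 16590 named genes with a probe on the array. In all, 33 of the 37 had a probe with that symbol and 29 were bright enough to be tested, 11 for glycolysis and 18 for the TCA cycle, among 7665 tested genes. Total RNA of 8 murine B cell lymphomas of strain C57B6 was measured on Illumina bead arrays, 4 tumours in each of 2 genotypes. All 8 carried Eµ-Myc, a transgene that drives the Myc oncogene from an immunoglobulin heavy chain enhancer and so mainly in B cells. The second genotype, called Wrn below, also carried Wrn Δhel on both copies, an allele with a deletion in the helicase region of Wrn, the gene behind Werner syndrome. Tumour titles carry a letter, E or L, that the labels do not explain: the Eµ-Myc tumours were E8, E11, L1 and L2, and the Wrn tumours E3, E6, L1 and L2. Tumour age is not given in the labels used here, nor is a statement that each tumour came from its own animal, so p-values measure the spread between these samples only.

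In glycolysis, glucose enters through Slc2a1 and is trapped and committed by hexokinase and phosphofructokinase. Pyruvate kinase then yields pyruvate, which lactate dehydrogenase turns to lactate for export by Slc16a1 and Slc16a3. The pyruvate dehydrogenase complex, which Pdk1 inhibits, instead passes pyruvate to the TCA cycle, and Myc is known as an activator of several glycolytic genes.

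The median signal of an array was 49.9 to 52.8, with 10607 to 11369 of 25697 probes detected. Precision is limited by how few arrays there are. Array correlations over tested probes ran from 0.945 to 0.984. The labelled B cell origin was checked on 8 markers, of which 6 were tested; Cd79a, part of the B cell receptor, lay between 10.58 and 11.65, whereas Pax5, a defining B lineage factor, was not detected on any array. In such bulk tumours, fewer cells of a type and less RNA per cell cannot be told apart. Values below are log2 signals of 1 probe per gene, the brightest tested, and levels of different probes are not compared. Probe sequences were not used here, so shared hybridization with pseudogenes, which are many for Gapdh, was not checked.

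Promoter windows of 4 members are shown. Those of Ldha and Ogdh were picked because they hold the sequence CACGTG, the E-box that Myc binds with Max. The other Ldha window, and some of the other Ogdh windows, lacked it. Hk2 and Mdh1 are shown as the members whose E and L tumours did not overlap. Each window runs from 250 bases before to 50 bases after a RefSeq start, in build GRCm38.p6 and in the gene's own direction. Capitals mark every ACGTG or its complement CACGT, the core of the hypoxia response element, which also lies on both strands of each CACGTG. The Hk2 window is chr6:82774405-82774704 on the minus strand, that of Ldha chr7:46845554-46845853 on the plus strand, that of Ogdh chr11:6291920-6292219 on the plus strand and that of Mdh1 chr11:21571885-21572184 on the minus strand.
Hk2: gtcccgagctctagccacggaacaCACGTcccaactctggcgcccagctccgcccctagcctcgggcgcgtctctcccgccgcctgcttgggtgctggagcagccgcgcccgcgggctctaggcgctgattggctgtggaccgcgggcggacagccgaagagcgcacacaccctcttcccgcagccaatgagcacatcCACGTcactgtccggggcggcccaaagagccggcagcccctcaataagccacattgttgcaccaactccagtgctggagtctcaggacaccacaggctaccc
Ldha: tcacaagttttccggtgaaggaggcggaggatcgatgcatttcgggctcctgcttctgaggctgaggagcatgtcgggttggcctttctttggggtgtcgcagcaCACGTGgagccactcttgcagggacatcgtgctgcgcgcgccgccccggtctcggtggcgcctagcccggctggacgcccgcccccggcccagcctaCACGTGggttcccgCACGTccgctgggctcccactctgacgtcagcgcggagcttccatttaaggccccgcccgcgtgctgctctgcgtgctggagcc
Ogdh: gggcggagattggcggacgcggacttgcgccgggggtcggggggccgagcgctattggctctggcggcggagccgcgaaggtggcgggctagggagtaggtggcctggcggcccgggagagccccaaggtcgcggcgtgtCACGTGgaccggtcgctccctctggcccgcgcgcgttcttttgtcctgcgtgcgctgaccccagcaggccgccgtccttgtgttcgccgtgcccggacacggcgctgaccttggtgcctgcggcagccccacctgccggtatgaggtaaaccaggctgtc
Mdh1: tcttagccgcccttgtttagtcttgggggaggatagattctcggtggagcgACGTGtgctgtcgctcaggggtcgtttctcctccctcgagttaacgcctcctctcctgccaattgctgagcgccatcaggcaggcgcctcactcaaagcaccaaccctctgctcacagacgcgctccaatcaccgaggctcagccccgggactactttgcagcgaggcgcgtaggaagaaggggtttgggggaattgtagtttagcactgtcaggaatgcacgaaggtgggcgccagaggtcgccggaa
The Ldha window held 2 copies of CACGTG, the first 145 bases before the start, and the Ogdh window 1 copy 110 bases before it. The RefSeq table held 48 promoters of 35 members, some of them overlapping windows of alternative starts. Searched on both strands, CACGTG stood in 7.15% of all 32851 promoters and in 5 of the 48 members' promoters (10.4%). These belonged to Ldha, Slc16a1 and Ogdh, and 3 of the 5 were windows of Ogdh. By gene, CACGTG was found for 3 of 35 members (8.57%), near the 8.09% of all genes. ACGTG stood in 19.6% of all promoters, in 12 of 24 glycolysis promoters (50%) and in 10 of 24 TCA cycle promoters (41.7%). Counted by gene, ACGTG was found for 11 of 17 glycolysis members (64.7%) and 5 of 18 TCA cycle members (27.8%), against 21.8% of all genes. These matches describe the letters in the windows and say nothing of binding in these tumours.

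Each member was first followed through the 8 tumours, beginning with glucose entry. Slc2a1, the GLUT1 glucose transporter, gave 9.06, 8.80, 9.08 and 8.90 in Eµ-Myc E8, E11, L1 and L2 and 8.68, 9.38, 9.10 and 8.84 in Wrn E3, E6, L1 and L2. The 2 genotypes overlapped fully, with an SD over the 8 tumours of 0.22. Hk2, the hexokinase that phosphorylates glucose, gave 10.36, 10.70, 9.89 and 9.48 in the Eµ-Myc tumours and 10.21, 10.66, 10.18 and 10.19 in the Wrn tumours, in the same order. Its highest values were in Eµ-Myc E11 and Wrn E6 and its lowest in Eµ-Myc L2. Hk1, the other listed hexokinase, was not detected on any array.

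Pfkl, a phosphofructokinase subunit of the committed step, varied most among the glycolysis members, with an SD over the 8 tumours of 0.76, above 95% of tested genes. It gave 8.63, 10.10, 9.06 and 7.69 in the Eµ-Myc tumours and 9.18, 9.58, 9.85 and 8.94 in the Wrn tumours. The Eµ-Myc values alone held both the highest and the lowest, E11 and L2. A second, dimmer Pfkl probe, detected on 6 arrays, varied from 4.80 to 5.24 only. Pfkp, another subunit, had an SD of 0.48, with its highest value of 9.43 in Wrn E3 and its lowest of 8.05 in Wrn E6.

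Of the middle steps, Gapdh and Tpi1 had the smallest SDs among the glycolysis members. Gapdh, which makes the first NADH, lay between 13.59 and 13.88, an SD of 0.09 that was lower than that of all but 0.365% of tested genes. Tpi1, which interconverts the triose phosphates, had an SD of 0.21 and lay between 12.25 and 12.81. Aldoa, which cleaves fructose bisphosphate, had an SD of 0.27 and lay between 9.09 and 9.59 in 7 tumours and at 10.03 in Eµ-Myc E11. Pgk1, the first ATP-yielding kinase, was dim, detected on 7 arrays, and lay between 4.68 and 5.51.

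At the exit of glycolysis, Pkm, pyruvate kinase, gave 12.64, 12.36, 12.14 and 12.54 in the Eµ-Myc tumours and 12.96, 12.48, 12.78 and 12.58 in the Wrn tumours. Ldha, the lactate dehydrogenase subunit known as a Myc target, gave 13.42, 13.33, 13.40 and 13.46 in the Eµ-Myc tumours and 13.42, 13.20, 14.05 and 13.65 in the Wrn tumours. The 4 Eµ-Myc tumours thus lay close together for Ldha, while the Wrn tumours held both the highest value, L1, and the lowest, E6. Of the lactate exporters, Slc16a1 was detected only in Eµ-Myc L2, at 5.66, against 4.18 to 4.30 in the others, which was not well above background. The brightest of 3 Slc16a3 probes was detected on 1 array, at values between 4.43 and 4.82 over the 8, and its other probes on none. Gpi1, Eno1 and Ldhb of the glycolysis names, and Sdha of the TCA cycle, had no probe listed under those symbols.

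The pyruvate dehydrogenase genes varied more. Pdk1, the kinase that switches the complex off, gave 9.49, 8.30, 9.14 and 9.73 in the Eµ-Myc tumours and 9.52, 8.61, 9.76 and 9.03 in the Wrn tumours. It was lowest in Eµ-Myc E11 and Wrn E6 and spanned much the same range in both genotypes, with an SD over the 8 tumours of 0.53. Dlat, the acetyltransferase core of the complex, gave 6.58, 6.83, 6.73 and 6.10 in the Eµ-Myc tumours and 7.06, 6.42, 7.57 and 6.87 in the Wrn tumours. Pdha1, its decarboxylase alpha subunit, gave 11.04, 10.60, 10.99 and 10.71 against 11.40, 10.63, 11.28 and 11.35. For both genes 3 of the 4 Wrn tumours lay above every Eµ-Myc tumour and Wrn E6 did not. Pdhb, the beta subunit, lay between 7.85 and 8.83 and was lowest in Eµ-Myc E11 and Wrn E6, as Pdk1 was.

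Within the cycle, Cs, citrate synthase, gave 9.18, 9.40, 9.50 and 9.67 in the Eµ-Myc tumours and 9.22, 9.02, 9.32 and 8.93 in the Wrn tumours. Of the NAD-dependent isocitrate dehydrogenase subunits, Idh3a and Idh3b had SDs of 0.12 and 0.10, both among the lowest 1.27% of tested genes, and Idh3g had 0.25. Idh2, the mitochondrial NADP-dependent enzyme, was the most variable TCA cycle member (SD 0.58). It gave 6.73, 8.13, 7.05 and 6.88 in the Eµ-Myc tumours and 7.24, 7.36, 6.26 and 6.47 in the Wrn tumours, so that Eµ-Myc E11 stood above all others. Ogdh, the first subunit of the oxoglutarate dehydrogenase complex, gave 8.59, 9.21, 8.35 and 7.42 against 8.18, 9.04, 8.11 and 8.49, an SD of 0.56. As for Hk2, the highest Ogdh values were in Eµ-Myc E11 and Wrn E6 and the lowest in Eµ-Myc L2. Dlst, the succinyltransferase of the same complex, did not follow Ogdh, lying between 10.11 and 10.54 in 7 tumours and at 9.39 in Eµ-Myc L1.

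Among the later steps, Suclg1, the alpha subunit of succinyl-CoA ligase, lay between 11.12 in Eµ-Myc L2 and 11.85 in Wrn L1. Of the succinate dehydrogenase genes, Sdhc, a membrane anchor, was steady with an SD of 0.19. Sdhb lay between 9.29 and 10.23, lowest in Wrn E6, and Sdhd, the other anchor, between 5.61 in Wrn E3 and 6.57 in Eµ-Myc E11. By these brightest probes the lowest tumour differed among Suclg1, Sdhb and Sdhd. A second Suclg1 probe, detected on all 8 arrays, was lowest in Wrn E6, at 9.56, as Sdhb was. Fh1, fumarase, lay between 10.39 and 11.12 in 7 tumours and at 9.58 in Eµ-Myc L2. Mdh2, the mitochondrial malate dehydrogenase, gave 10.09, 9.82, 9.64 and 10.27 in the Eµ-Myc tumours and 9.99, 9.58, 10.05 and 10.02 in the Wrn tumours. Mdh1, the cytosolic malate dehydrogenase, gave 6.28, 6.36, 6.45 and 6.75 against 6.29, 5.79, 6.78 and 6.56. Both were lowest in Wrn E6, and the genotypes overlapped for both. Sucla2, a succinyl-CoA ligase subunit, was not detected on any array. The median SD over the 8 tumours was 0.26 for glycolysis members and 0.32 for TCA cycle members, against 0.32 for all tested genes.

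**Figure D1:**
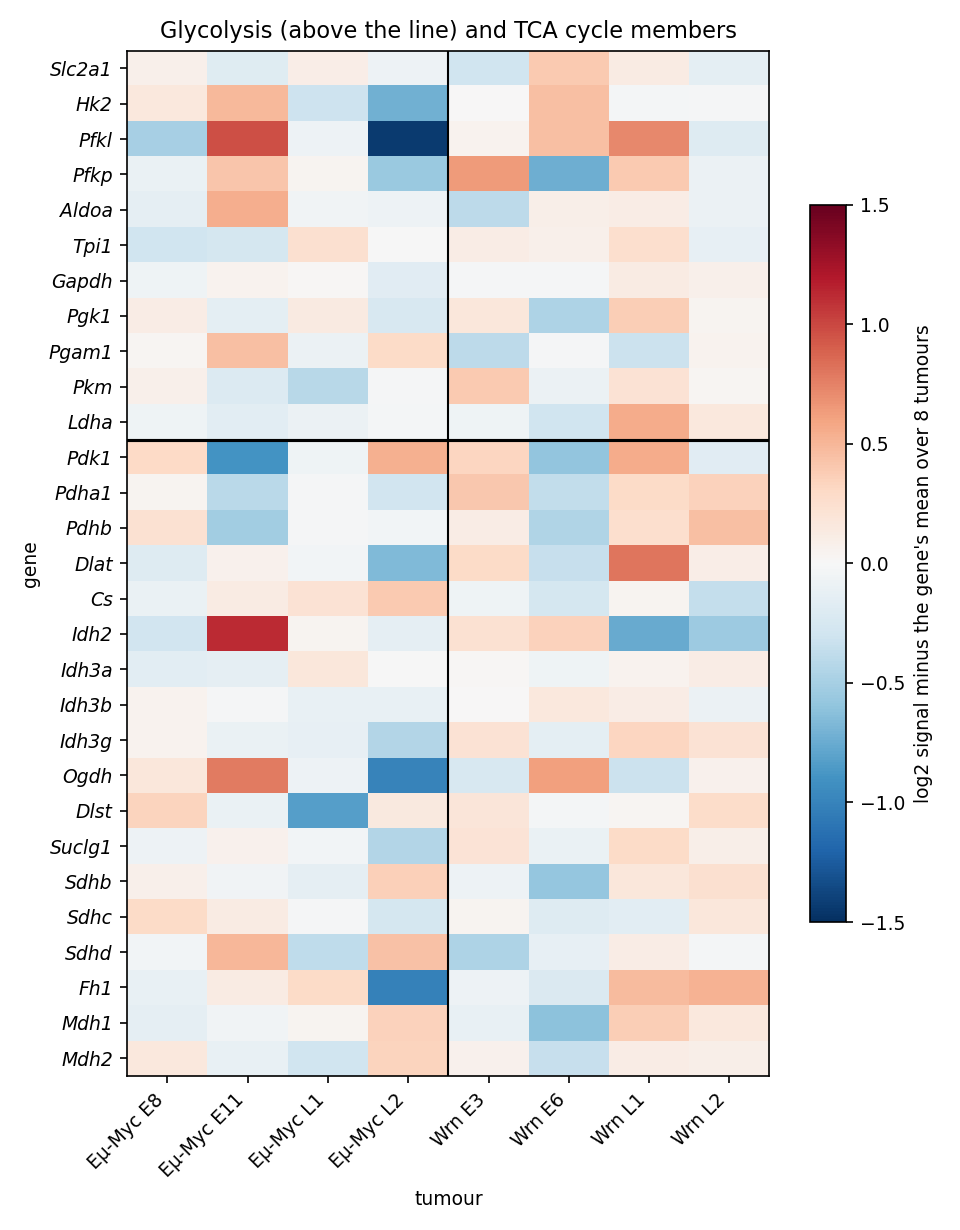
Log2 signal of each tested member in each of the 8 tumours, less the gene's mean over the 8, as colour from blue (below the mean) to red (above it), with glycolysis above the horizontal line and genotypes apart at the vertical line. Pfkl in Eµ-Myc L2 and Idh2 in Eµ-Myc E11 show the strongest colours, and Gapdh and Idh3b the palest rows.

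The same tumours stood at the extremes for many members. Wrn L1 held the highest value of 9 of the 29 members, against 15.3% of all tested genes, and Eµ-Myc E11 that of 7, against 13.0%. Eµ-Myc L2 held the lowest value of 9 members, against 18.3% of all tested genes, and Wrn E6 that of 6, against 12.2%. In Wrn L1 the median deviation from the gene's mean over the tumours was 0.22 for glycolysis and 0.14 for the TCA cycle. In Wrn E6 the median was -0.017 for glycolysis and -0.20 for the TCA cycle. Summed signal of cycling cell markers was also highest in Wrn L1, at 6783 against 3872 to 5421 in the other tumours, and that of stroma markers in Wrn E6, at 4224 against 1273 to 2289; the part of these cells in the members' values was not tested.

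**Figure D2:**
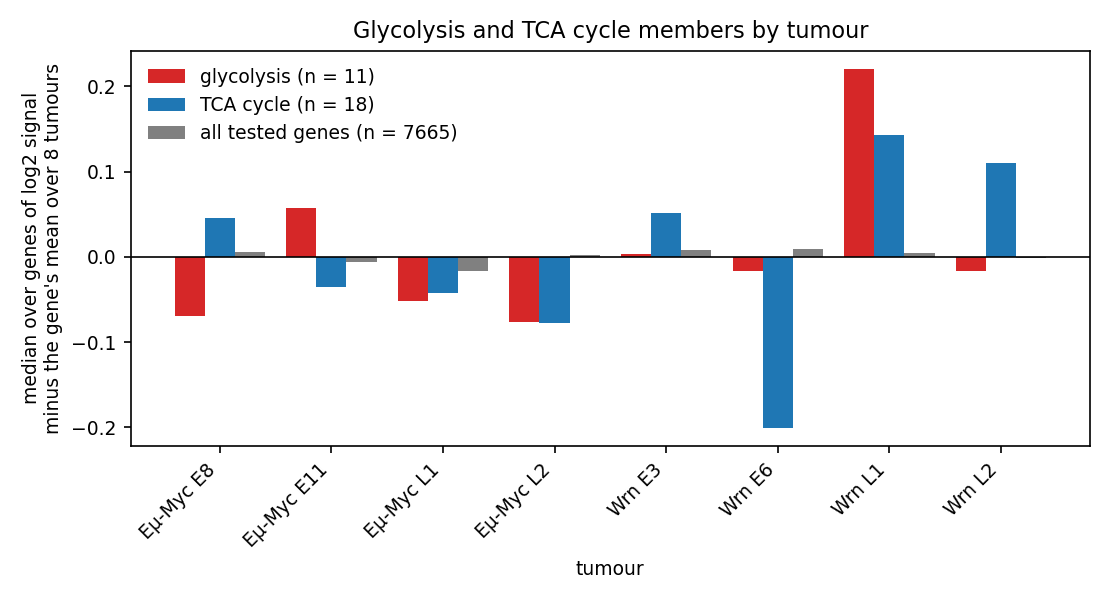
Median deviation from each gene's mean over 8 tumours, in log2 units, for glycolysis members (n = 11), TCA cycle members (n = 18) and all 7665 tested genes in each tumour. Wrn L1 has the highest bars of both pathways (0.22 and 0.14) and Wrn E6 the lowest TCA cycle bar (-0.20), while the bars of all genes stay near 0.

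The first comparison, which the study's title names, asked whether the members differed between Wrn and Eµ-Myc tumours. Most members were slightly higher in the Wrn tumours, but none of the 29 passed the test. The largest differences upward were those of Pfkl, 0.52 ± 0.43, and Dlat, 0.42 ± 0.26, and the largest downward those of Idh2, -0.36 ± 0.35, and Pgam1, -0.34 ± 0.19 (log2, SE, 4 tumours each). No member was called at an adjusted p under 0.05 (limma, lowest member adjusted p = 0.973), against 0.0261% of all tested genes, which are 2 genes. At an unadjusted p under 0.05 there were again 0 members, against 3.84% of all tested genes, and 0 members had genotypes that did not overlap, against 2.1% of all tested genes.

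Of the 11 glycolysis members 9 were higher in Wrn, with a median difference of 0.11 and a range from -0.34 to 0.52. Of the 18 TCA cycle members 11 were higher, with a median of 0.063 and a range from -0.36 to 0.42. Over all tested genes 51.1% were higher in Wrn and the median was 0.0070. The medians were 0.060 and 0.028 with median scaling, and the glycolysis median was 0.018 without Eµ-Myc L2 and 0.021 without Wrn L1.

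The 4 glycolysis members with the lowest unadjusted p were Pgam1, Pkm, Pfkl and Tpi1. Pgam1, phosphoglycerate mutase, averaged 8.46 ± 0.25 in Eµ-Myc and 8.12 ± 0.22 in Wrn tumours (SD, n = 4). Pkm averaged 12.42 ± 0.22 and 12.70 ± 0.21, a difference of 0.28 ± 0.19 (SE), or 0.17 with median scaling. Pfkl averaged 8.87 ± 1.00 and 9.39 ± 0.41 (SD, n = 4). The values of the genotypes overlapped for all 3 genes. The Pfkl difference was 0.13 without Eµ-Myc L2 and 0.93 without Eµ-Myc E11, so the tumours with the lowest and highest Pfkl signal set its size. The second, dimmer Pfkl probe differed by 0.052. Tpi1 differed by 0.16 ± 0.18, or 0.060 with median scaling, and by 0.089 without Eµ-Myc E8 and 0.27 without Eµ-Myc L1.

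The corresponding TCA cycle members were Cs, Idh3g, Dlat and Pdha1. Cs, the entry enzyme, averaged 9.44 ± 0.21 in Eµ-Myc and 9.12 ± 0.18 in Wrn tumours (SD, n = 4), a difference of -0.31 ± 0.18 (SE). Idh3g, the gamma subunit of isocitrate dehydrogenase, differed by 0.31 ± 0.18, or 0.19 with median scaling, and its second probe by 0.072. Dlat averaged 6.56 ± 0.32 and 6.98 ± 0.48 (SD, n = 4), and its difference was 0.22 without Wrn L1. Pdha1 averaged 10.83 ± 0.21 and 11.17 ± 0.36, a difference of 0.34 ± 0.21 (SE), or 0.51 without Wrn E6. Citrate synthase and the pyruvate dehydrogenase subunits that feed it thus had differences of opposite sign, none past the test.

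Markers of other cells differed by genotype beside these genes, although none of them was called either. All 7 tested macrophage markers were lower in Wrn tumours, with a median difference of -0.52, and their summed signal ran from 7691 to 11810 in Eµ-Myc and from 5321 to 9557 in Wrn tumours. All 6 tested B cell markers were higher in Wrn tumours, with a median of 0.35. Their part in the members' differences was not tested. Of the T cell markers, Cd4 and Cd8a were not detected on any array, and the summed signal of the 2 tested ones, Cd3d and Cd3g, was 353.0 in Eµ-Myc L1 against 50.03 to 89.7 in the other tumours.

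**Figure D3:**
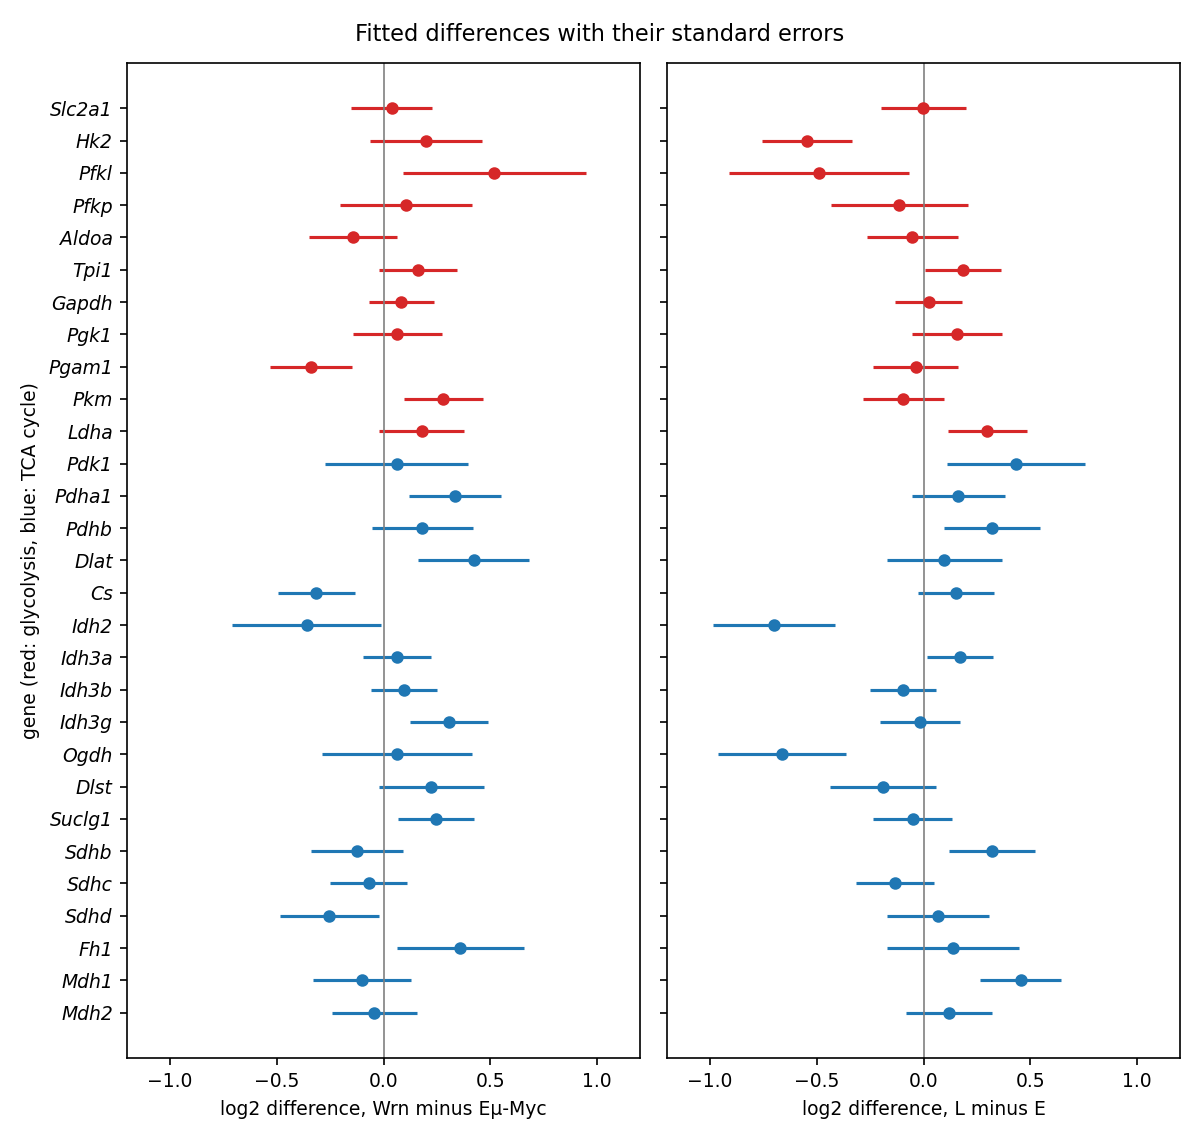
Fitted log2 difference of each tested member (points) with its standard error (bars), Wrn minus Eµ-Myc on the left and L minus E on the right, glycolysis in red and TCA cycle in blue. On the left every difference lies between -0.36 and 0.52, and on the right Hk2, Idh2 and Ogdh lie farthest below 0 and Mdh1 farthest above it.

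The second comparison set the 4 L tumours against the 4 E tumours, with genotype in the model, since both letters occur in each genotype. Hk2, which starts glycolysis, and Idh2 and Ogdh, around oxoglutarate, had lower signal in L tumours, and Mdh1, Pdk1 and Ldha higher signal, but no member passed the test (limma, lowest member adjusted p = 0.610). Called genes made up 0.013% of all tested genes, which is 1 gene. At an unadjusted p under 0.05 there were 3 members, Hk2, Idh2 and Mdh1, against 7.62% of all tested genes. The letters did not overlap for 2 members, Hk2 and Mdh1, against 5.15% of all tested genes. A share of 2 or 3 in 29 members is near these backgrounds.

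Hk2 averaged 10.48 ± 0.23 in E and 9.94 ± 0.33 in L tumours (SD, n = 4), and its difference was -0.55 ± 0.21 (SE, limma adjusted p = 0.610). Every E tumour lay above every L tumour, though Wrn E3 at 10.21 and Wrn L2 at 10.19 nearly met. Mdh1 averaged 6.18 ± 0.26 and 6.63 ± 0.16 (SD, n = 4), a difference of 0.46 ± 0.19 (SE, limma adjusted p = 0.649). Its letters were also narrowly apart, at 6.36 in Eµ-Myc E11 and 6.45 in Eµ-Myc L1. Idh2 averaged 7.37 ± 0.58 and 6.67 ± 0.36 (SD, n = 4), a difference of -0.70 ± 0.29 (SE, limma adjusted p = 0.630). Its letters overlapped through Eµ-Myc E8, at 6.73, and the difference was -0.47 without Eµ-Myc E11.

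Ogdh differed by -0.66 ± 0.30 (SE, limma adjusted p = 0.667), from 8.75 ± 0.46 in E to 8.09 ± 0.47 in L tumours (SD, n = 4). Pdk1 differed by 0.43 ± 0.32 and Sdhb, the iron-sulphur subunit of succinate dehydrogenase, by 0.32 ± 0.20. Ldha differed by 0.30 ± 0.19, Pfkl by -0.49 ± 0.42 and Tpi1 by 0.19 ± 0.18. With 1 tumour left out in turn, these ran from 0.17 (without Wrn L1) to 0.37 for Ldha, from -0.77 (without Wrn L1) to -0.094 (without Eµ-Myc E11) for Pfkl and from 0.096 (without Eµ-Myc L1) to 0.30 (without Wrn L2) for Tpi1. Within Eµ-Myc tumours the letter difference was 0.054 for Ldha, -0.99 for Pfkl and 0.40 for Tpi1. Within Wrn tumours it was 0.54 for Ldha, 0.015 for Pfkl and -0.028 for Tpi1. Ogdh, Pdk1, Sdhb and Ldha kept their sign in both genotypes. The Sdhb difference was 0.18 without Wrn E6 and that of Ogdh -0.41 without Eµ-Myc L2. The dimmest of the Tpi1 probes, singled out after its values were seen, had L tumours from 8.02 to 8.25 and E tumours from 7.11 to 7.91, a difference of 0.63.

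Of the glycolysis members 4 of 11 were higher in L tumours, with a median difference of -0.037, and of the TCA cycle members 11 of 18, with a median of 0.11. Over all tested genes 49.3% were higher in L and the median was -0.0040. The sign of the glycolysis median turned when Eµ-Myc E11 (0.068) or Eµ-Myc L2 (0.021) was left out, and the TCA cycle median was -0.0048 without Wrn E6 and 0.016 without Wrn L1.

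Markers of granulocytes and stroma also had lower signal in L tumours, with none called. All 6 tested granulocyte markers were lower in L tumours, with a median difference of -1.37, and their summed signal ran from 550.1 to 2616 in E and from 185.3 to 429.2 in L tumours. All 6 stroma markers were likewise lower, with a median of -1.03, and their sums ran from 1991 to 4224 in E and from 1273 to 1872 in L tumours. For 4 of the 6 the letters did not overlap, against 5.15% of all tested genes. Of erythroid markers, the sum was 25850 in Eµ-Myc L1 and 16100 in Wrn E6, against 1519 to 6987 in the others. The part of these cells in the members' letter differences was not tested.

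**Figure D4:**
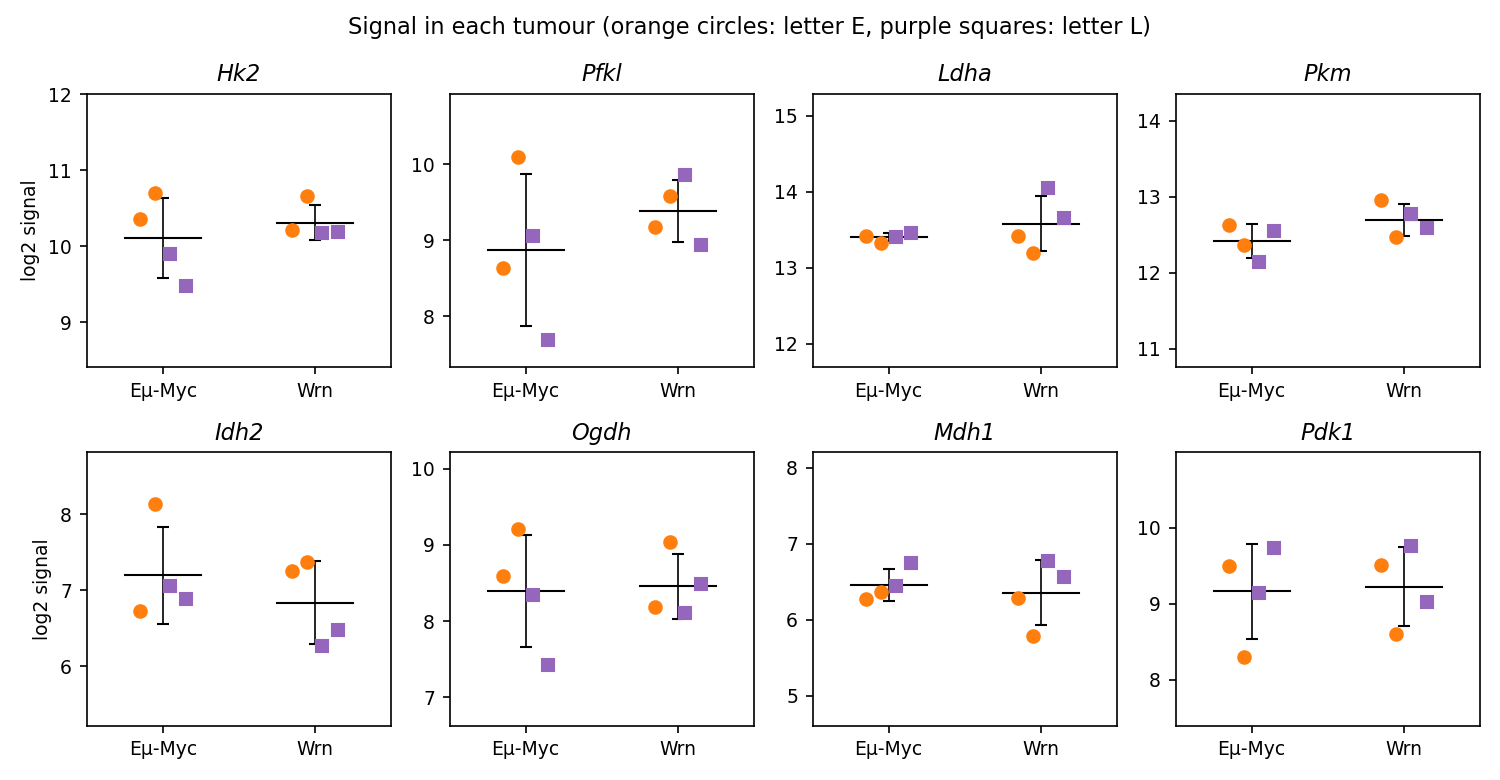
Log2 signal of 8 members in each tumour by genotype, with letter E as orange circles and letter L as purple squares, and the genotype mean with its SD (n = 4) as lines and bars. For Hk2 all orange points lie above all purple points and for Mdh1 below them, while Pfkl spans 7.69 to 10.10 among the Eµ-Myc tumours alone.

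The third comparison asked whether the genotype difference differed between the letters, with 2 tumours in each genotype and letter. The signed difference, Wrn minus Eµ-Myc, was higher in L than in E tumours for 23 of the 29 members, 9 of 11 in glycolysis and 14 of 18 in the TCA cycle, against 49.7% of all tested genes. For some of the 23 the size of the difference was nevertheless greater in E tumours, as for Sdhd, at -0.52 in E and 0.0096 in L tumours. No member passed the test (limma, lowest member adjusted p = 0.936), as for 0% of all tested genes, and 0 members had an unadjusted p under 0.05, against 5.06% of all tested genes. The median genotype difference was -0.066 in E and 0.26 in L tumours for glycolysis, and -0.085 in E and 0.13 in L tumours for the TCA cycle. The median interaction was 0.39 in both pathways, against -0.0043 for all tested genes. For glycolysis this median, like that of 0.26 in L tumours, was the value of Pgk1, a dim probe detected on 7 arrays. The glycolysis median interaction was 0.19 with an offset of 50.

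The largest interactions were those of Fh1, 1.02 ± 0.55 (SE), and Pfkl, 1.01 ± 0.82. Both were lowest in Eµ-Myc L2, at 9.58 and 7.69. Dlat followed with 0.78 ± 0.50 and was also lowest in that tumour. The second, dimmer Pfkl probe had an interaction of the opposite sign, -0.29 ± 0.35, and was lowest in Eµ-Myc E8. The TCA cycle median was 0.16 without Wrn E6 and 0.19 without Eµ-Myc L1, and the glycolysis median 0.23 without Wrn E6. The replicate numbers used here, which the tumour titles do not carry, follow the same split. The interaction contrast is therefore also that of replicates 1 and 3 against 2 and 4, and the readings cannot be told apart.

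Markers of other cells stood along the same contrast, with none called. All 7 tested macrophage markers had interactions below 0, from -1.04 to -0.65, as had the 3 tested erythroid markers, from -2.79 to -1.47, both tested T cell markers, at -1.66 and -0.96, and all 6 stroma markers, from -1.11 to -0.17. All 6 granulocyte markers had interactions above 0, from 0.95 to 1.41. The part of these cells in the members' interactions was not tested.

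Further genes around the 2 pathways were taken from lists of related enzymes and regulators, and none was called by genotype or by letter. Of 30 other glycolysis genes 12 were tested, 7 of them higher in Wrn. Pfkfb2, which makes the activator of phosphofructokinase, differed by 0.51 ± 0.21 between genotypes (SE, limma adjusted p = 0.973), Slc2a3, a second glucose transporter, by 0.33 ± 0.18 and Slc2a8 by -0.38 ± 0.19. Eno3, an enolase, differed by 0.58 ± 0.26 between letters. Pfkfb2 lay between 6.33 and 6.55 in the Wrn tumours and between 5.52 and 6.26 in the Eµ-Myc tumours, without overlap. The genotypes did not overlap for Slc2a3 either, nor for 2.1% of all tested genes.

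Of 29 other pyruvate and TCA cycle genes 16 were tested, 13 of them higher in L tumours, with a median letter difference of 0.11. The pyruvate dehydrogenase phosphatases, which reverse the action of Pdk1, went opposite ways, Pdp1 by 0.53 ± 0.20 and Pdp2 by -0.54 ± 0.20 (SE, limma adjusted p = 0.610 and 0.604). Sdhaf1, an assembly factor of succinate dehydrogenase, differed by 0.73 ± 0.28 between letters, by 1.38 within Eµ-Myc and 0.072 within Wrn tumours. The interaction of genotype and letter was above 0 for 12 of these 16 genes, with a median of 0.28, but for 1 of the 12 other glycolysis genes, with a median of -0.11, and none was called. Pdk4, another pyruvate dehydrogenase kinase, differed by -0.53 ± 0.30 between genotypes and was detected on 5 arrays.

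All 6 pentose phosphate genes with a probe were tested, 4 of them higher in Wrn and 2 higher in L, and Rpia, ribose phosphate isomerase, differed by -0.60 ± 0.28 between letters (SE). Of 10 tested glutamine use genes 6 were higher in Wrn and 4 in L, with Slc1a5, a glutamine transporter, at -0.48 ± 0.24 between letters. Of 11 hypoxia response genes 4 were tested, and Ddit4, a stress-induced inhibitor of mTORC1 signalling, differed by 0.68 ± 0.40 between genotypes.

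Among 18 regulators 11 were tested and 6 were higher in Wrn. Myc itself gave 9.08, 8.76, 6.92 and 8.91 in the Eµ-Myc tumours and 9.13, 8.73, 8.76 and 8.50 in the Wrn tumours. Eµ-Myc L1, by far the lowest for Myc, held the lowest value of 3 of the 29 members and the highest of 1. Over all tested genes it held the lowest value of 15.0% and the highest of 12.6%. Max, the partner of Myc, differed by 0.44 ± 0.23 between genotypes (SE), Hif1a, the hypoxia-inducible factor subunit, by 0.32 ± 0.17, and Arrdc4, a glucose-responsive arrestin, by -0.82 ± 0.43. The Arrdc4 difference had opposite signs by letter, 0.31 in E and -1.96 in L tumours, an interaction of -2.26 ± 0.51 (SE, limma adjusted p = 0.936). Arnt, the partner of Hif1a, differed by 0.36 ± 0.16 between letters, whose values did not overlap, as for 5.15% of all tested genes. None of these passed the test (limma adjusted p from 0.665 to 0.973).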

How the data were processed

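RNA of 8 tumours was measured, and each tumour, deposited under 2 processings (16 records), was counted once. Per the file headers, the deposited non-normalized table holds the mean bead intensity of each probe and a detection p-value. The deposited lumi table holds a background-subtracted intensity, with 26.3% to 26.4% of values below 0. The deposited Illumina GUI table holds a score. For probes with lumi values above 1000, log2 of the lumi value and the square root of the score differed by at most 0.0102. Its log2 scale is not shown for dim probes. The versions of that software are not given in the sources used.

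The 25697 probes of the non-normalized and processed tables were joined one to one by their ranks on the 8 arrays (99.98% alike from 4 arrays). Of them 23962 were named by gene number, 9 by accession and 7 by the platform's symbol, 0 had several symbols and 1719 had none. For the background and normalization, neqc was run (R 4.3.3, limma 3.58.1, offset 16, quantile, log2), an offset that understates differences of dim probes. The 11024 probes with detection p under 0.01 on at least 4 arrays were tested with lmFit and eBayes, two-sided, with Benjamini-Hochberg adjustment over all of them and calls at an adjusted p under 0.05. Of these probes, 642 had no gene name, and the rest covered 7665 genes, each counted by its brightest tested probe. The self-test on simulated data ran with the same fit. Python 3.11.15 with pandas 2.3.3, numpy 2.4.6, scipy 1.17.1 and matplotlib 3.10.9 was used for the join, promoters and figures.

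The members, gene lists and rule for named genes were chosen with earlier results of these data known. That rule names the members of entry, committed, branch and exit steps, the 4 lowest unadjusted p per pathway and contrast, members without overlap, the 3 largest and 3 smallest SDs per pathway, and up to 3 genes of each other list. Summed marker signals are on the linear scale of the normalized values, over the tested markers of a list. Alternatives were another offset, the deposited lumi and GUI values, cyclic loess, median scaling, other detection filters, array weights, a replicate block, another covariate, the mean over probes and leaving out each tumour.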

Additional observations from a re-analysis of the deposited data

Results flagged for a closer look

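Values of 4 members stood apart from the other 3 tumours of their genotype, with a gap to the nearest tumour that took up most of the genotype's range (Dixon's test). Chance flags about 1 in 20 groups, and 58 groups were tested. Hk2 was highest in Wrn E6, at 10.66 against 10.21 in the next Wrn tumour. Pdha1 was lowest in Wrn E6, at 10.63 against 11.28 in the next, and so was Mdh2, at 9.58 against 9.99. Aldoa was highest in Eµ-Myc E11, at 10.03 against 9.43 in the next Eµ-Myc tumour. The causes were not tested.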

How the results depend on the processing

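No alternative called a member: the counts between genotypes, between letters and for the interaction of genotype and letter were 0 in all 52 alternatives. All 272 alternative values of the 16 named differences, each of a member by genotype or by letter, kept their sign. Their adjusted p stayed above the threshold. The 16 were chosen for low unadjusted p in these same data, which favours a kept sign. They were not run with the mean over probes. Of 110 alternative list medians 98 moved by less than their spread between tumours. For the genotype medians of 0.11 and 0.063 that spread was 0.093 and 0.12, so the count does not show that these medians were steady. The glycolysis genotype median of 0.018 without Eµ-Myc L2 was counted among the 98. The glycolysis letter median of -0.037 was 0.0697 with array weights, and its range was -0.0548 to 0.0676 with 1 tumour left out in turn. The TCA cycle letter median ranged from -0.0048 to 0.13 in the same way. The glycolysis interaction median of 0.39 was 0.19 with an offset of 50 and 0.20 with no detection filter, and ranged from 0.23 to 0.54 with 1 tumour left out, and that of the TCA cycle from 0.16 to 0.53. Settings for these interaction medians were chosen after seeing the data. The genotype medians ranged from 0.018 to 0.16 for glycolysis and from 0.033 to 0.13 for the TCA cycle with 1 tumour left out, and were 0.060 and 0.028 with median scaling. The replicate block called 0 members and left the genotype medians at 0.11 and 0.063. Deviations of same-numbered tumours from their genotype means had correlations from -0.21 to -0.0037. Each such pair joined an E and an L tumour, so these correlations cannot decide whether the numbers pair the tumours. No interaction could be fitted beside the replicate block, since both use the same contrast. A block for the slide was not run, because the headers name none. Dim members (Hk1, Pgk1, Slc16a1, Slc16a3 and Sucla2) are limited by signal over background. The causes of these shifts were not tested.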
